A study of Mus musculus with 4 samples.

Results

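The genes described here encode the carriers that move amino acids across cell membranes. They were chosen by symbol alone from the solute carrier families SLC1, SLC3, SLC6, SLC7, SLC36, SLC38 and SLC43 in the count tables. Every symbol that ends in its number was taken, leaving out Slc7a11, so symbols with a further letter were not taken. Each gene was read from 1 transcript row (the row with the highest mean count). The choice gave 58 of 24063 gene symbols, of which 36 had a mean of at least 1 CPM (reads of the gene per 1000000 reads of the library) over the libraries, among 13129 genes at that level.

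RNA was sequenced from 4 mouse liver tumours, numbered 1, 5, 9 and 10 by the submitters. All 4 carried the same label: tumour tissue of strain C57BL/6 (written C57BL6/J in the sample titles), with MYC and PMEPA1 overexpressed after hydrodynamic tail vein delivery and without further treatment, and the series describes the tumours as hepatocellular carcinomas. Hydrodynamic injection delivers DNA mainly to hepatocytes, and the host animal keeps its own genes and its own immune and stromal cells. There was no normal liver and no tumour without PMEPA1, so each comparison below is between individual tumours of 1 group. The labels also give a passage number, which is not explained, and separate animals are not mentioned. The p-values therefore measure only the spread between these 4 samples, which may be technical.

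Amino acid transporters fall into a few mechanical types. Exchangers such as the light chains of SLC7 swap one amino acid for another and reach the cell surface only when joined by a disulfide bond to a heavy chain of SLC3, whereas the SLC38, SLC6 and several SLC1 carriers use the sodium gradient to accumulate their substrates. Hepatocytes take up glutamine, alanine and arginine for gluconeogenesis and the urea cycle, and growing tumour cells commonly raise the exchangers that bring in leucine and other essential amino acids, which mTORC1 senses at the lysosome. The family names are wider than the title of plasma membrane amino acid transporters: SLC38A7 and SLC38A9 are lysosomal proteins, SLC6A4, SLC6A6 and SLC6A8 carry serotonin, taurine and creatine, SLC43A3 carries purine nucleobases, and SLC7A4 has no transport function shown for it.

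Gene totals were between 41547938 and 51939623 counts per tumour. CPM values were scaled by the trimmed mean of M-values (TMM), whose factors were 1.102, 1.031, 1.098 and 0.8018 for tumours 1, 5, 9 and 10. Without that scaling the median gene of tumour 10 shifted by -0.32 on the log2 scale. Hepatocyte markers were abundant in every tumour, with a summed level of 16081, 17680, 22004 and 34544 CPM in tumours 1, 5, 9 and 10, and none of the 10 was at 0. The delivered genes were read at low levels under their mouse symbols, Myc at 6.92 ± 1.55 CPM and Pmepa1 at 3.71 ± 2.73 CPM (SD, n = 4). Whether the delivered sequences were mouse or human is not stated, so these levels need not include them. Whenever 4 values follow each other below, they are those of tumours 1, 5, 9 and 10 in that order, and ± is the SD over the 4 tumours.

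**Figure D1:**
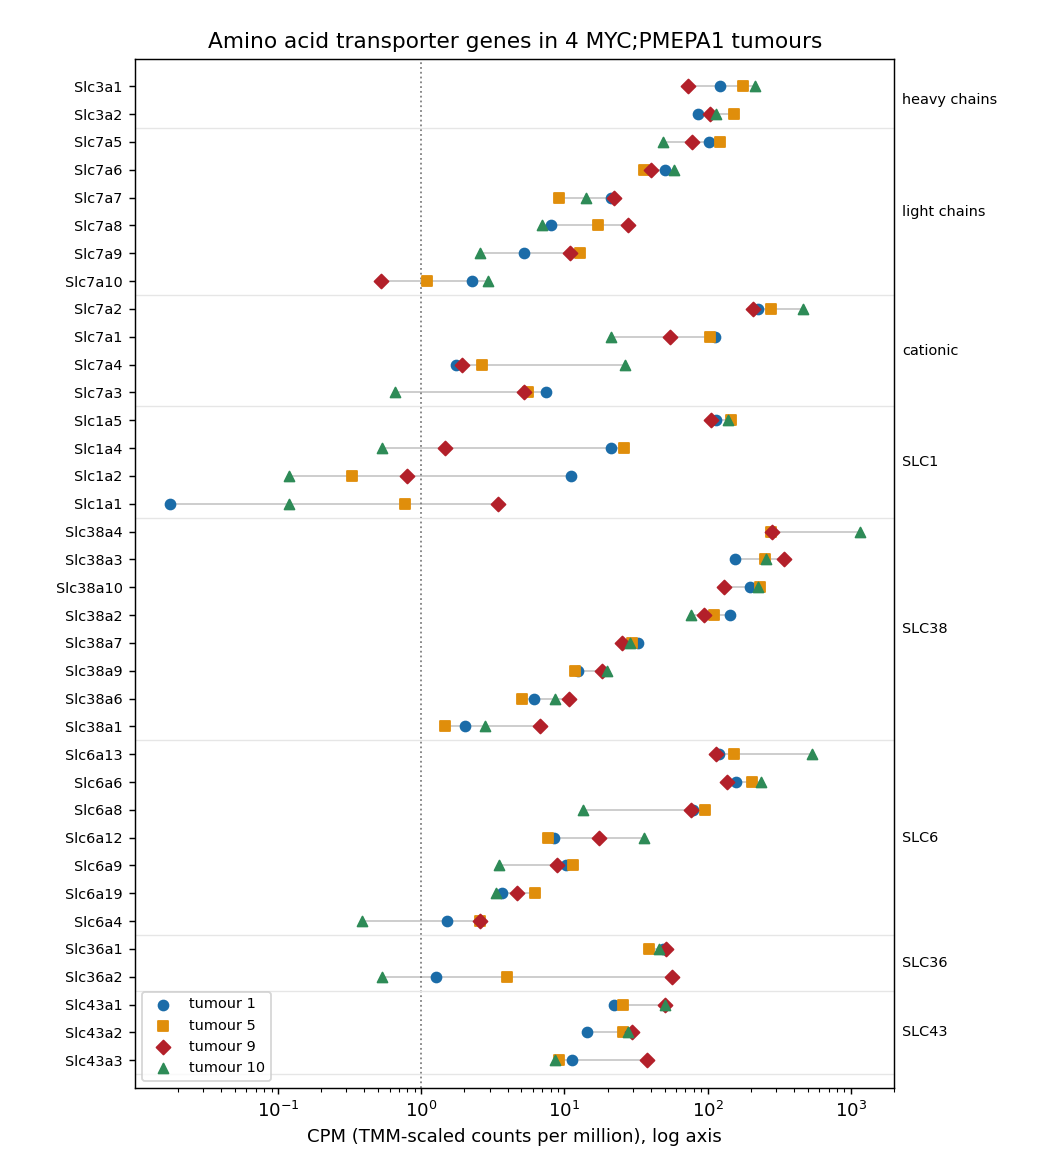
CPM (TMM-scaled, log axis) of the 36 transporter genes with a mean of at least 1 CPM, 1 point per tumour, ordered by family, with a dotted line at 1 CPM. Slc38a4, Slc6a13 and Slc7a4 lie apart at the right in tumour 10, Slc6a8 and Slc7a3 lie apart at the left in tumour 10, and Slc36a2 at the right in tumour 9.

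Per length of transcript, 3 liver carriers stood at the top of the set. Slc38a4, a sodium-coupled carrier of neutral and cationic amino acids found mainly in liver, had the highest mean at 127 ± 112 CPM per kilobase. Slc6a13, the hepatic carrier of GABA and taurine known as GAT2, followed at 107 ± 94.7 CPM per kilobase, and Slc38a3, the sodium-coupled glutamine carrier SNAT3 of liver, brain and kidney, at 96.5 ± 29.3 CPM per kilobase. Next came the heavy chain Slc3a1 at 63.9 ± 27.1, the glutamine exchanger Slc1a5 at 45.6 ± 7.03, Slc38a10 at 42.9 ± 10.3, the heavy chain Slc3a2 at 40.7 ± 10.1 and the arginine carrier Slc7a2 at 37.9 ± 15.0 CPM per kilobase. The order was not fixed between tumours. Of the 35 pairs of neighbours in the order of mean level, all 35 had overlapping ranges, and only in 3 was the first gene above the second in all 4 tumours, namely Slc38a3 over Slc3a1, Slc7a2 over Slc6a6 and Slc38a9 over Slc7a10.

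The summed level of all 58 genes was 592, 724, 649 and 1112 CPM per kilobase, highest in tumour 10. The sum over all genes was highest there too, at 528024, 576307, 556382 and 827061 CPM per kilobase, and the transporter genes took 0.243%, 0.268%, 0.246% and 0.309% of the gene counts. The make-up of that sum differed in tumour 10 too. Its 5 leading genes took 71.4% of the sum there, against 47.8%, 51.0% and 51.1% in tumours 1, 5 and 9. Slc38a4 alone made up 26.5% and Slc6a13 22.4% in tumour 10, whereas in tumours 5 and 9 the leading gene was Slc38a3, at 13.4% and 20.3%. By family, the SLC38 carriers held 38.9 ± 3.51% of the sum and the SLC6 carriers 20.5 ± 4.91%. The SLC7 light chains held 9.79%, 8.35%, 8.63% and 3.64%, the lowest share being that of tumour 10.

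**Figure D2:**
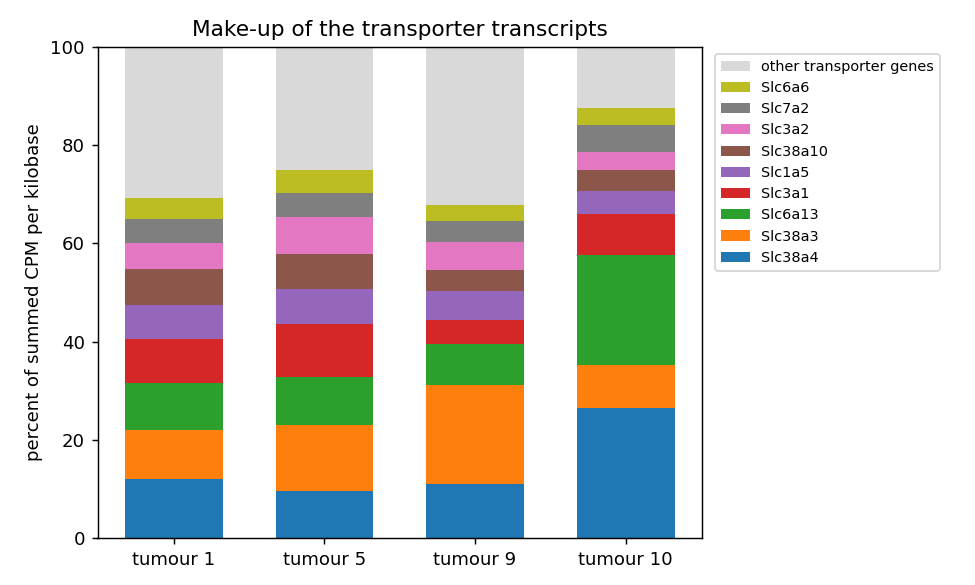
Percent of the summed CPM per kilobase of the 58 transporter genes taken by the 9 genes with the highest means, with the remaining genes in grey, 1 bar per tumour. Slc38a4 and Slc6a13 fill 26.5% and 22.4% of the bar of tumour 10.

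The heavy chains are the partners without which most SLC7 light chains are not delivered to the surface. Slc3a2, which encodes the CD98 heavy chain (chromosome 19, 8706882 to 8723369, minus strand, in GRCm38 coordinates of GENCODE M21, as for all gene positions below), was measured at 86.3, 153, 104 and 114 CPM. These values lay within 1.78-fold of each other, with the highest in tumour 5. Slc3a1, which encodes rBAT, the heavy chain of the cystine and dibasic amino acid exchanger of kidney and intestine, was measured at 122, 178, 73.3 and 216 CPM. The highest value, in tumour 10, was 2.94-fold the lowest, in tumour 9. Slc7a9, the light chain that joins rBAT, stood far below it in every tumour, at 5.21, 12.8, 10.9 and 2.56 CPM. Per kilobase, Slc7a9 was 0.0542, 0.0914, 0.189 and 0.0151 of Slc3a1.

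Slc7a11, which also joins CD98, was left out by the choice of genes, so the order and the ratios of light chains hold among the 5 kept. They were led by Slc7a5, which encodes LAT1, the exchanger that brings in leucine, phenylalanine and tryptophan. Slc7a5 stood at 102, 123, 77.9 and 49.0 CPM, lowest in tumour 10. Slc7a6 (y+LAT2, an exchanger of cationic for neutral amino acids) stood at 50.8, 35.7, 40.2 and 57.9 CPM and varied least of the light chains, by an SD of 0.32 in log2 CPM. Its close relative Slc7a7 (y+LAT1) was at 21.2, 9.15, 22.3 and 14.1 CPM. The lowest of both was in tumour 5, and the highest in tumour 10 for Slc7a6 and in tumour 9 for Slc7a7. Slc7a8 (LAT2) was at 8.07, 17.2, 27.7 and 6.99 CPM, with the highest value in tumour 9. Slc7a10, which encodes the small neutral amino acid exchanger Asc-1, was near the lower limit, at 2.25, 1.10, 0.521 and 2.91 CPM.

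Summed per kilobase, the 5 CD98 light chains were 1.79, 0.980, 1.34 and 0.960 of Slc3a2, a mean of 1.27 ± 0.391. The ratio of Slc7a5 alone to Slc3a2 was 0.943, 0.642, 0.598 and 0.344. It was lowest in tumour 10, where the heavy chain itself was not low. Slc7a5 made up 52.6%, 65.5%, 44.5% and 35.9% of the light chain sum and was its leading gene in tumours 1, 5 and 9. In tumour 10 Slc7a6 led, with 39.9%. The mean ratio became 0.832 when all transcript rows of a gene were added up (Slc3a2 has 2 rows and Slc7a7 3, with nearly the same counts in each), so a value of light chains per heavy chain depends on how rows are combined.

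**Figure D3:**
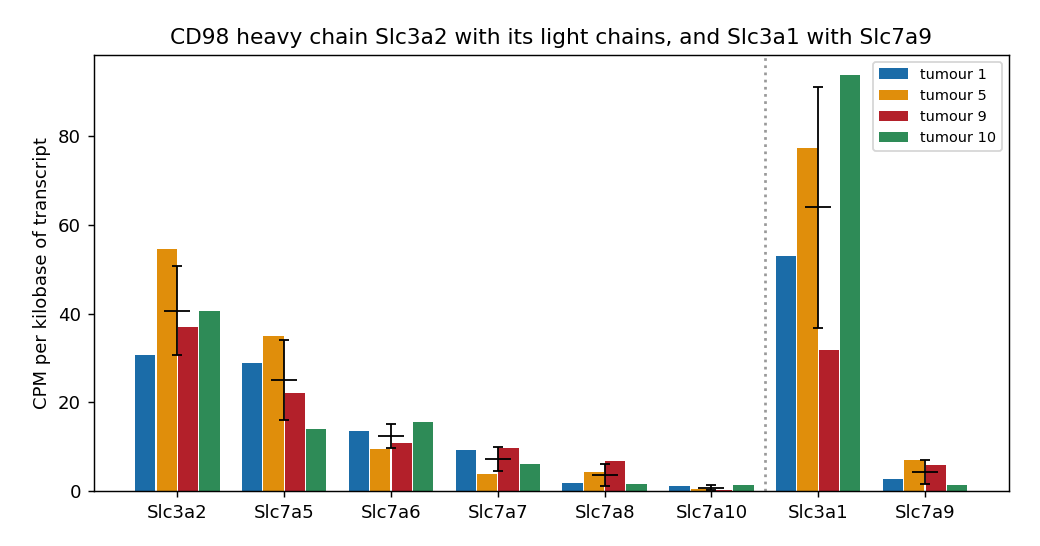
CPM per kilobase of the CD98 heavy chain gene Slc3a2 and the light chain genes that join it, and of Slc3a1 and Slc7a9, 1 bar per tumour, with black lines for the mean and SD over the 4 tumours. The Slc7a5 bar is lowest in tumour 10, at 13.9, whereas the Slc3a2 bars lie between 30.7 and 54.5.

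The cationic carriers of SLC7 bring arginine, lysine and ornithine into cells without a heavy chain. Slc7a2, which encodes CAT2, the arginine carrier of hepatocytes, was the most abundant at 225, 277, 206 and 461 CPM (chromosome 8, 40862396 to 40922308, plus strand). Slc7a1, which encodes the widely expressed CAT1 (chromosome 5, 148327410 to 148399904, minus strand), was measured at 113, 104, 54.2 and 21.1 CPM. Tumour 10 had the highest Slc7a2 and the lowest Slc7a1. Both were lower in tumour 9 than in tumours 1 and 5. The ratio of Slc7a2 to Slc7a1 per kilobase was 1.85, 2.47, 3.54 and 20.3. Slc7a3 (CAT3, known from brain and embryo) stood at 7.48, 5.53, 5.25 and 0.654 CPM, the value of tumour 10 resting on 22 counts. Slc7a4, the CAT-like gene, stood at 1.75, 2.66, 1.92 and 26.6 CPM (chromosome 16, 17572018 to 17583214, minus strand). Its value in tumour 10 was 15.2-fold the lowest and outside the narrow range of the other 3.

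Among the SLC1 genes, Slc1a5 was the steady member and its relatives were not. Slc1a5, which encodes ASCT2, the exchanger of glutamine, serine and other small neutral amino acids, was measured at 114, 145, 105 and 139 CPM, within 1.39-fold. Slc1a4, which encodes the related exchanger ASCT1 (chromosome 11, 20302180 to 20332713, minus strand), was measured at 21.2, 26.2, 1.45 and 0.535 CPM. Tumours 1 and 5 were high and tumours 9 and 10 low, 48.9-fold apart at the extremes, and the low values rest on 78 and 18 counts against 1211 and 1120. The ratio of Slc1a5 to Slc1a4 per kilobase was 7.68, 7.90, 103 and 370. Slc1a2, the glutamate carrier GLT-1 found in pericentral hepatocytes and in astrocytes (chromosome 2, 102658659 to 102790784, plus strand), had 637, 14, 43 and 4 counts, or 11.1, 0.327, 0.800 and 0.119 CPM. It reached 1 CPM only in tumour 1, at 93.6-fold the level of tumour 10. Slc1a1, the glutamate and cysteine carrier EAAC1, had 1, 33, 183 and 4 counts and reached 1 CPM only in tumour 9, at 3.41 CPM.

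The SLC38 carriers held the highest and the steadiest genes of the set. Slc38a4 (chromosome 15, 96994820 to 97055956, minus strand) stood at 279, 275 and 281 CPM in tumours 1, 5 and 9 and at 1158 CPM in tumour 10. The first 3 tumours were nearly equal and tumour 10 was 4.21-fold above the lowest. Slc38a3 stood at 156, 253, 343 and 255 CPM, highest in tumour 9 and lowest in tumour 1. Slc38a2, the widely expressed SNAT2 that cells raise when amino acids are short, stood at 143, 110, 94.9 and 76.2 CPM. Per kilobase, Slc38a4 was 2.30, 2.93, 3.49 and 17.9 times Slc38a2, and Slc38a3 was 1.93, 4.06, 6.41 and 5.94 times it. Slc38a1 (SNAT1), which serves glutamine uptake in many dividing cells, was low, at 2.03, 1.47, 6.70 and 2.77 CPM.

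The lysosomal members of SLC38 differed little between tumours. Slc38a7, whose protein exports glutamine from lysosomes, was at 32.6, 29.5, 25.2 and 28.6 CPM, within 1.29-fold and with the lowest SD of the 36 genes, 0.15 in log2 CPM. Slc38a9, whose protein reports lysosomal arginine to mTORC1, was at 12.5, 11.9, 18.2 and 19.8 CPM. Tumours 9 and 10 lay above tumours 1 and 5 by a small margin. The less studied Slc38a10 was abundant at 198, 234, 130 and 226 CPM, and Slc38a6 low at 6.13, 5.04, 10.8 and 8.53 CPM.

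The SLC6 genes encode sodium- and chloride-coupled carriers. Slc6a13 (chromosome 6, 121300227 to 121337733, plus strand) was measured at 121, 153, 115 and 535 CPM. Its neighbour on the same strand, Slc6a12 (121343076 to 121365775), encodes the betaine and GABA carrier BGT1 and was measured at 8.42, 7.73, 17.3 and 36.2 CPM. Both were highest in tumour 10, and their highest values were 4.65-fold and 4.68-fold their lowest. Slc6a8, the creatine carrier gene (chromosome X, 73673150 to 73682502, plus strand), was at 79.1, 95.6 and 76.4 CPM in tumours 1, 5 and 9 and at 13.4 CPM in tumour 10, the reverse pattern. The taurine carrier gene Slc6a6 was at 157, 204, 136 and 236 CPM, within 1.73-fold. Slc6a9 (the glycine carrier GLYT1) was at 10.3, 11.5, 8.84 and 3.51 CPM, Slc6a19 (the neutral amino acid carrier B0AT1 of gut and kidney) at 3.67, 6.26, 4.67 and 3.33 CPM, and Slc6a4 (the serotonin carrier) at 1.52, 2.57, 2.55 and 0.387 CPM. All 3 were lowest in tumour 10.

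The remaining families each had 1 member set apart in tumour 9. Slc36a1, which encodes the proton-coupled carrier PAT1 of lysosomes and plasma membrane, was at 48.5, 39.1, 51.1 and 46.1 CPM, within 1.31-fold. Slc36a2 (PAT2, a high-affinity proline and glycine carrier, chromosome 11, 55158470 to 55185077, minus strand) was at 1.28, 3.99, 56.8 and 0.535 CPM, with 73, 171, 3051 and 18 counts. The value of tumour 9 was 106-fold the lowest, the widest ratio among the 36 genes wherever a ratio could be given. Slc43a1 (LAT3, a facilitator of branched-chain amino acids found in liver) was at 22.1, 25.8, 50.5 and 50.5 CPM, and Slc43a2 (LAT4) at 14.3, 25.5, 29.6 and 27.9 CPM. Slc43a3 (chromosome 2, 84936579 to 84958509, plus strand) was at 11.3, 9.15, 37.9 and 8.53 CPM, highest in tumour 9.

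Of the 58 genes, 22 had a mean under 1 CPM. In this group 7 had no count in any tumour, where the limit that a count of 0 allows (3 counts) was 0.0524, 0.0700, 0.0558 and 0.0892 CPM for counting error only. Another 3 reached 1 CPM in 1 tumour each, which was tumour 9 for all of them. Slc38a5 (the glutamine and glycine carrier SNAT5) had 0, 2, 167 and 7 counts, so that its 3.11 CPM in tumour 9 was at least 59.3-fold higher than the limit of tumour 1. Slc1a3 (the glutamate carrier GLAST) was at 0.280, 0.187, 2.14 and 0.297 CPM, and Slc36a4 (PAT4) at 0.245, 0.677, 1.06 and 0.595 CPM. The other 12 stayed at or under 0.476 CPM in each tumour. Around the limit of 1 CPM, the genes just inside were Slc7a10 at a mean of 1.70 and Slc1a1 at 1.08 CPM, and just outside were Slc38a5 at 0.841 and Slc1a3 at 0.726 CPM. Among the 36 genes inside, 29 reached 1 CPM in every tumour, 5 in 3 tumours and 2 (Slc1a1 and Slc1a2) in 1 tumour only, so the last 2 could pass only by varying.

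Promoter sequence was read from RefSeq (GRCm38.p6, from 250 bases before to 50 after each start), in which 40 of the 58 genes had an entry, 25 of them among the 36. Searched on both strands were the E-box CACGTG that MYC with MAX binds, the core TGATGNAA of the amino acid response element that ATF4 binds, and the HNF4 site CAAAGTCCA. The E-box was found in 8 of 40 genes (20%), but in 3 of the 25 measured at 1 CPM or more (12%: Slc36a1, Slc38a7 and Slc43a1), against 8.093% of 27025 genes. The ATF4 core was found in Slc1a4 and Slc7a7 (5% of 40 genes against 4.511%) and the HNF4 site in Slc3a1 (2.5% against 0.555%). The stretches below show each motif in a gene at 1 CPM or more, with an additional E-box gene. They set the steadiest genes, Slc36a1 and Slc38a7, beside Slc1a4, one of the most variable. That contrast does not extend to the motif genes at 1 CPM or more that are not printed. Slc43a1, with an E-box, and Slc7a7, with the ATF4 core, had similar SDs of 0.63 and 0.60 in log2 CPM. The capitals mark the match, each stretch is written 5′ to 3′ on the gene's own strand, and a match is a run of letters and not a shown binding site. They are Slc1a4 at chr11:20332710-20332807 (minus strand, where the capitals are the core read from the other strand and the last 4 bases lie at or past the start), Slc3a1 at chr17:85028218-85028346 (plus strand), Slc36a1 at chr11:55204247-55204342 (plus strand, 2 matches, with the last 3 bases at or past the start) and Slc38a7 at chr8:95853492-95853615 (minus strand).
Slc1a4: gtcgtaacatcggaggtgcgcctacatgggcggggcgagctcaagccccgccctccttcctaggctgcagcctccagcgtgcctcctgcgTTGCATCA
Slc3a1: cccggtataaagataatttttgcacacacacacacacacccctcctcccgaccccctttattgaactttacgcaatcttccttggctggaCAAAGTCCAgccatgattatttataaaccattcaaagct
Slc36a1: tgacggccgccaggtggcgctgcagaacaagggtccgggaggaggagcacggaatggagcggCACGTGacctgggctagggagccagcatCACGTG
Slc38a7: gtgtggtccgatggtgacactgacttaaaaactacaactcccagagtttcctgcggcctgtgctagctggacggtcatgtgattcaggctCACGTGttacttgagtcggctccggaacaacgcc

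The spread of each gene over the tumours was then set beside that of all genes. An SD of at least 1 in log2 CPM was reached by 15 of the 36 transporter genes (41.7%), against 16.6% of the 13129 genes, and the median SD was 0.73 against 0.45. The 15 genes were Slc1a1, Slc1a2, Slc1a4, Slc36a2, Slc38a4, Slc43a3, Slc6a4, Slc6a8, Slc6a12, Slc6a13, Slc7a1, Slc7a3, Slc7a4, Slc7a9 and Slc7a10. Slc1a1 and Slc1a2 passed the limit of 1 CPM only through their highest tumour and so had to vary. Among genes whose mean was at least 1 CPM also without their highest tumour, an alternative chosen after seeing the data, 13 of 34 transporter genes (38.2%) reached the SD, against 13.9% of 12533 genes. At the other end, 13 genes had an SD under 0.5, among them Slc1a5, Slc3a2, Slc7a6, Slc38a2 and Slc38a3. Such low spread was less common than among all genes. An SD under 0.25 was found in 8.333% of the 36, against 21.43% of all genes. From 0.25 to 0.5 the shares were 27.78% and 34.95%. The count rested in part on tumour 10. Without it 8 of 37 genes reached the SD, against 11.4% of all genes, and only 6 of the 15 were among them. The 9 genes that dropped out were Slc38a4, Slc6a4, Slc6a8, Slc6a12, Slc6a13, Slc7a1, Slc7a3, Slc7a4 and Slc7a9. All 36 genes varied by more than read sampling allows (Poisson chi-square test over 4 libraries, Benjamini-Hochberg adjusted), but so did 98.7% of all genes.

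**Figure D4:**
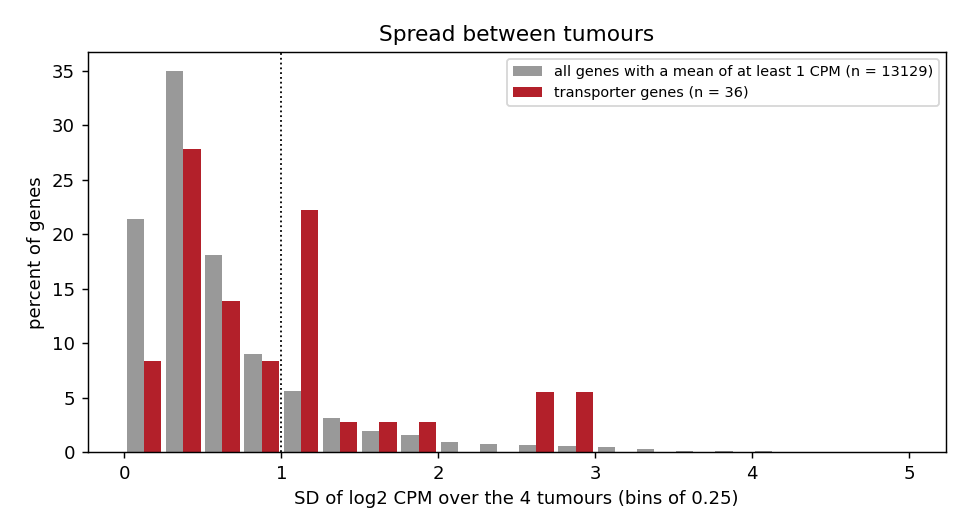
Percent of genes by the SD of log2 CPM over the 4 tumours in bins of 0.25, for the 36 transporter genes and for all 13129 genes, with a dotted line at 1. In the bins past the line lie 41.7% of the transporter genes and 16.6% of all genes.

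Each tumour was next compared with the other 3 across all genes. By edgeR's quasi-likelihood test with Benjamini-Hochberg adjustment over all genes and tumours, no transporter gene passed in any tumour, nor did any of the 13129 genes (0% in each direction). The smallest adjusted p of a transporter gene was 0.373, 0.903, 0.309 and 0.111. The lone tumour is assumed in this test to vary like the others. At an unadjusted p under 0.05 by the same test, tumour 1 had 1 higher transporter gene, Slc1a2 (against 0.427% of all genes), and tumour 5 had 0 (against 0.617%). Slc1a2 is among the genes tested only through its level in tumour 1, so its call there is a description only. Tumour 9 had 3 higher, namely Slc36a2, Slc38a1 and Slc43a3, or 8.33% of the 36 against 3.76% of all genes. No transporter gene was lower in these 3 tumours, against 0.289%, 0.305% and 1.9% of all genes.

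Tumour 10 stood apart most. In it 5 transporter genes were higher at an unadjusted p under 0.05 by edgeR (Slc38a4, Slc6a12, Slc6a13, Slc7a2 and Slc7a4), a share of 13.9% that equalled the 13.9% of all genes. The same test gave 6 lower (Slc6a4, Slc6a8, Slc6a9, Slc7a1, Slc7a3 and Slc7a5), or 16.7% against 8.23% of all genes. Slc38a4 had a log2 fold change of 2.06 against the other 3 tumours (edgeR adjusted p = 0.111), Slc6a13 of 2.05 (0.144), Slc7a4 of 3.66 (0.144) and Slc6a8 of -2.64 (0.138). DESeq2's Wald test with the same adjustment called 3 higher (Slc38a4, Slc6a13 and Slc7a4, against 6.34% of all genes) and 4 lower (Slc1a4, Slc6a8, Slc7a1 and Slc7a3, against 4% of all genes). It also called Slc1a2 higher in tumour 1 (against 0.129% of all genes), with the same limit, and Slc36a2 and Slc43a3 higher in tumour 9 (against 1.06%), with 0 lower there (against 1.36%). In tumour 5 it called 0 higher and 0 lower, against 0.099% and 0.244% of all genes. limma-voom called none. With tumour 9 left out, edgeR's adjusted test called 6 transporter genes in tumour 10, against 3.19% of all genes.

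By rank alone, 5, 10, 10 and 11 of the 36 genes were highest in tumours 1, 5, 9 and 10, against 21.4%, 21.2%, 21.6% and 35.8% of all genes. The lowest value fell in tumour 10 for 14 genes, or 38.9%, against 32.4% of all genes. With total counts in place of TMM, 5 genes were highest and 18 lowest in tumour 10, against 20.2% and 53.1% of all genes. Those 5 were Slc38a4, Slc6a12, Slc6a13, Slc7a2 and Slc7a4, the same genes that had an unadjusted p under 0.05 on the higher side. Slc6a6, Slc7a6, Slc7a10, Slc38a9, Slc43a1 and Slc3a1 were highest in tumour 10 with TMM but not with total counts.

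Carriers known from growing cells and carriers known from adult liver were then read as 2 lists. For the growth-associated carriers (Slc1a4, Slc1a5, Slc3a2, Slc7a1, Slc7a5, Slc38a1 and Slc38a2), the median difference from the mean of the 4 tumours was 0.29, 0.45, -0.12 and -0.44 in log2 CPM, against medians within 0.04 of 0 over all genes. In tumour 5, 4 of the 7 were highest (21.2% of all genes), and in tumour 10, 4 of the 7 were lowest (32.4% of all genes). Slc1a5, Slc3a2 and Slc38a1 were not below the mean in tumour 10, with differences of 0.16, 0.02 and 0.02. For the adult liver carriers (Slc1a2, Slc7a2, Slc38a3, Slc38a4, Slc43a1, Slc6a12 and Slc6a13) the median was -0.61, -0.43, -0.04 and 0.73, and 5 of the 7 were highest in tumour 10 (35.8% of all genes). The exceptions there were Slc38a3, highest in tumour 9, and Slc1a2, lowest in tumour 10. None of either list passed edgeR's adjusted test. At an unadjusted p under 0.05 by edgeR, 4 of the 7 liver carriers were higher and 2 of the 7 growth-associated carriers lower in tumour 10, beside the 13.9% and 8.23% of all genes. The values in tumour 9 changed sign with total counts, to 0.01 and 0.07. Without tumour 10, the medians of tumour 1 shrank to 0.04 for the growth-associated and -0.09 for the liver carriers, and those of tumour 5 to 0.27 and -0.02.

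**Figure D5:**
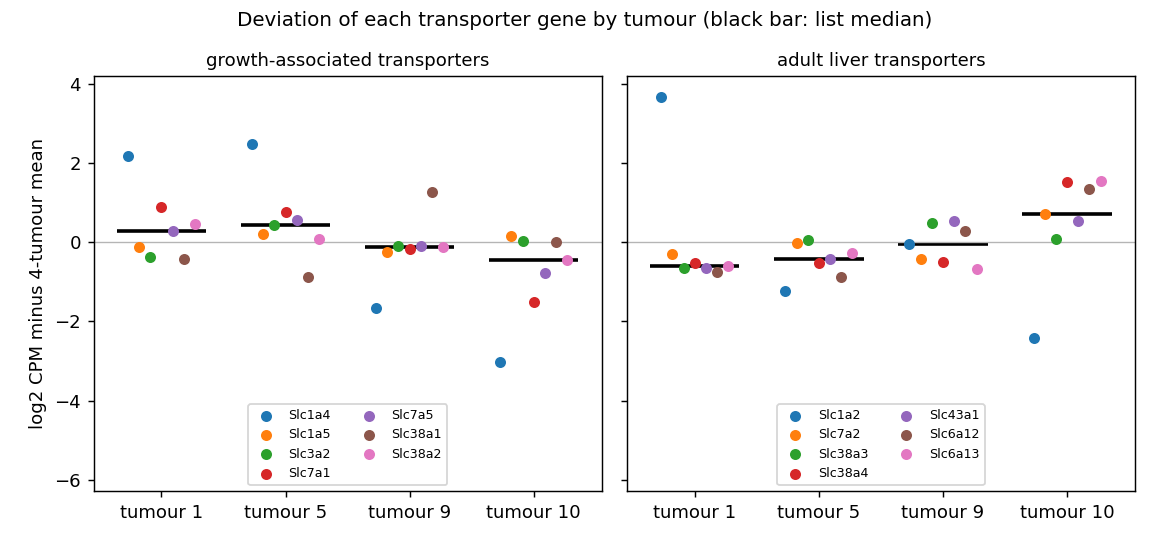
Log2 CPM minus the mean of the 4 tumours for each gene of the growth-associated list (left) and the adult liver list (right), with a black bar for the list's median in each tumour. The medians in tumour 10 are -0.44 on the left and 0.73 on the right, and Slc1a2 departs from its list in tumours 1 and 10.

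Markers of several cell types and of the liver zones also differed between the tumours. In tumour 10, 8 of 10 hepatocyte markers and 8 of 8 periportal markers were highest (35.8% of all genes). The periportal markers summed to 15465 CPM there, against 2679, 2716 and 3791 CPM in tumours 1, 5 and 9. Tumour 10 also had the lowest value of all 8 stellate cell and fibroblast markers (32.4% of all genes). Their sum there was 109 CPM, against 290 to 501 CPM. Of the 36 transporter genes, 10 were highest in tumour 9 (21.6% of all genes), Slc36a2 and Slc43a3 among them. All 9 erythroid markers were highest there too (868 against 89.1 to 127 CPM in sum). So were all 9 neutrophil markers (550 against 11.7 to 25.1 CPM) and 7 of 9 macrophage markers (946 against 212 to 394 CPM). None of the markers of these lists was at 0 in any tumour. The other 2 macrophage markers were highest in tumour 1, among them Clec4f at 20.7, 2.99, 0.744 and 0.208 CPM. Slc1a2 passed the limit of 1 CPM only through tumour 1. There, 4 of the 5 measurable pericentral markers were highest (21.4% of all genes). Among these, Cyp2e1 was nearly equal in tumours 1 and 10, at 205 and 203 CPM. The pericentral list of 8 summed to 642 CPM in tumour 1, against 214 to 355 CPM. Lgr5 of that list was at 0 in tumour 10. Cholangiocyte markers, in which Cftr was at 0 in tumour 10, summed to 51.8, 81.2, 15.7 and 13.9 CPM, high in the 2 tumours with high Slc1a4. The endothelial sum lay between 77.2 and 112 CPM. Of the 6 endothelial markers at 1 CPM or more, 5 were highest in tumour 9 (21.6% of all genes) and 1 in tumour 1. The T cell sum lay between 9.72 and 16.2 CPM. The T cell sum was mostly Cd247, at 12.4, 14.7, 12.7 and 6.48 CPM. Only 2 of the 6 T cell markers had a mean of at least 1 CPM. The part of these cell types and zones in the transporter values was not tested, and in bulk tissue fewer cells of a type and less RNA per cell cannot be told apart.

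Other genes of amino acid supply gave the setting of the carriers. Of 18 genes of the amino acid response (targets of ATF4 and Atf4 itself, carriers left out), 17 were at 1 CPM or more, 5 of them with an SD of at least 1 (16.6% of all genes), and none passed edgeR's adjusted test in any tumour. Their median difference was -0.05, 0.25, -0.35 and -0.07 in log2 CPM. Of the 17, 8 were highest in tumour 5 (21.2% of all genes) and 6 in tumour 10 (35.8% of all genes). The carriers Slc1a4, Slc3a2 and Slc7a5 were also highest in tumour 5. In contrast, Slc7a1 and Slc38a2 were highest in tumour 1, and Slc7a7 was lowest in tumour 5. A link between these genes and the carriers was not tested. Psat1, an enzyme of serine synthesis, stood at 1324, 1711, 784 and 177 CPM, lowest in tumour 10. Phgdh, the first enzyme of that pathway, stood at 482, 626, 616 and 412 CPM. Vldlr, a lipoprotein receptor induced by ATF4, stood at 4.96, 8.22, 0.335 and 0.0297 CPM, high and low in the same tumours as Slc1a4. Its value in tumour 10 lay under the limit of 3 counts there, 0.0892 CPM. Asns of the same list was nearly even, at 219, 227, 218 and 242 CPM.

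All 26 genes of amino acid sensing by mTORC1 were at 1 CPM or more. Their medians were -0.04, 0.05, -0.13 and 0.08 in log2 CPM, 5 of the 26 (19.2%) had an SD of at least 1, near the 16.6% of all genes, and none passed edgeR's adjusted test. Rheb, the GTPase that activates mTORC1, was at 103, 122, 84.5 and 94.1 CPM, and the Rag GTPase gene Rragc at 81.9, 85.1, 77.3 and 76.2 CPM. Its relative Rragb was far less even, at 13.7, 23.7, 0.0744 and 7.52 CPM, with 4 counts in tumour 9. The arginine sensor CASTOR1, listed under its older symbol Gatsl3, was at 0.542, 0.700, 8.15 and 2.56 CPM.

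Genes of glutamine, arginine and branched-chain amino acid use were highest in tumour 10 for 8 of the 12 at 1 CPM or more (35.8% of all genes). Their medians were -0.33, -0.28, 0.05 and 0.68 in log2 CPM, and none passed edgeR's adjusted test. Arg1, the arginase of the urea cycle, stood at 157, 135, 429 and 2284 CPM. Ass1, the argininosuccinate synthase, stood at 1067, 1229, 1415 and 6824 CPM, a value that is uncertain since a predicted gene, Gm5424, has nearly the same counts. Both are also among the periportal markers above, and the order of tumours for Arg1 and Ass1 put tumour 10 first, as it was for Slc7a2 and Slc38a4.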

How the data were processed

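RNA-seq libraries from 4 mouse tumours were used, made by poly-A selection with a TruSeq RNA kit, per the labels' protocols. The authors deposited, for each tumour, counts per RefSeq transcript together with FPKM and TPM values, per the file headers. The submitters' processing notes name FastQC 0.11.8 and GRCm38, and for the aligner, the counter and the strand setting the answer is: not given in the sources used here. The deposited FPKM values served only to recover transcript lengths, and the deposited TPM values only as a check of the columns. Each file held 33984 transcript rows. Per symbol, the row with the highest mean count was used, since rows of a gene can hold the same reads. This gave 24063 genes.

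Counts were scaled with TMM in edgeR 4.0.16 (R 4.3.3), and log2 CPM used a prior count of 2. Genes with a mean of at least 1 CPM were compared, each tumour against the other 3, with edgeR's quasi-likelihood test, two-sided. The Benjamini-Hochberg adjustment covered all genes and the 4 tumours together, at a threshold of 0.05. DESeq2 1.42.0 and limma 3.58.1 (voom) were alternatives. Levels of different genes were compared as CPM per kilobase of transcript. The scripts were tested on simulated data. Each tumour is 1 sample, and depth sets a limit of 3 counts, for counting error only.

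The transporter genes, the gene lists and the marker lists were chosen with earlier results of these data known, so no list is independent evidence. Values per tumour are given for each transporter gene at 1 CPM or more. Below it, genes are named where a tumour reached 1 CPM. Of the other lists, the 2 genes with the highest mean and the 2 with the largest SD are named. Castor1 was read under Gatsl3. Lgr5, Cftr, Gm5424, Clec4f, Cyp2e1, Cd247 and Asns were named after their values were seen. No row of the table was found for Slc6a16 and Slc6a20 under these symbols, and a symbol with a letter after its number could not be chosen.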

Additional observations from a re-analysis of the deposited data

Results flagged for a closer look

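In 4 of the 36 transporter genes at 1 CPM or more, a single tumour lay so far from the other 3 that its gap to the nearest of them, on the log2 scale, took up a larger share of the whole range than the 95% critical value of Dixon's test for 4 samples. The tumour was number 10 in each. Slc38a4 stood at 1158 CPM there, with a gap of 0.984 of the range, and Slc7a4 at 26.6 CPM, with a gap of 0.847. Slc6a8 stood at 13.4 CPM, with a gap of 0.886, and Slc7a3 at 0.654 CPM, with a gap of 0.852. The first pair lay above the other tumours and the second pair below. Chance sets apart about 1 in 20 such groups. Over all 13129 genes, 920 (7.007%) met the same criterion, against 11.11% of the transporter genes.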

How the results depend on the processing

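The number of transporter genes with an SD of at least 1 was 15. When single tumours were left out, it ranged from 8 without tumour 10 (against 11.4% of all genes) to 17 without tumour 1 or 5 (against 18.3% and 18%). With total counts in place of TMM it was 12. It was 21 without the filter on low counts and 10 at a mean of at least 5 CPM, settings that change how many genes are counted. The share of all genes is not given for total counts or these filters. Those counts therefore do not show how the transporter genes compare with all genes. No transporter gene passed edgeR's adjusted test in any tumour. DESeq2's Wald test with the same adjustment called transporter genes in tumours 1, 9 and 10. They are named in the Results with the share of all genes called in each direction, which was largest in tumour 10. Without the filter on low counts, edgeR called 2 in tumour 10 (Slc38a4 and Slc6a8, against 0.642% of all genes). When single tumours were left out, edgeR called from 0 to 6 in tumour 10. The 6 were called without tumour 9 and were Slc1a4, Slc38a4, Slc6a13, Slc6a8, Slc7a1 and Slc7a4, against 3.19% of all genes. The lone tumour is then compared with a pair and assumed to vary like it. The median of the adult liver carriers in tumour 1, -0.61, became 0.033 as a mean over the 7 genes, in which the high Slc1a2 counts in full. The ratio of CD98 light chains to Slc3a2, 1.27, was 0.832 with all rows added up and 1.09 to 1.37 with single tumours left out. Of the other values recomputed, 139 moved by less than the spread between tumours (counts, by at most 1.5 times). Among them 6 changed sign, all of them medians in tumour 9 close to 0, and the medians of tumours 1 and 5 shrank without tumour 10. The mean levels of the single genes did so in 272 of 288 recomputations, and the remaining 16 moved only when all rows were added up. No paired analysis was possible because there is only 1 group. Depth limits the lowest values most: Slc7a3, Slc1a4, Slc36a2, Slc1a2 and Slc1a1 rest on 22, 18, 18, 4 and 1 counts in their lowest tumour.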
